A study of Mus musculus with 4 samples.

Results

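A group of claudin and keratin genes and Grhl2 were followed in cultured mouse cells labelled as mesangial cells. Mesangial cells are the pericyte-like cells between the capillaries of the kidney's glomeruli. Some renal tubule markers were bright in these cultures and others were dim or under the brightness filter. Most mesangial markers were dim, but Vim on that list was among the brightest genes, as given below. The members were Cldn1, Cldn3, Cldn4, Cldn6, Cldn7, Krt7, Krt8, Krt18, Krt19 and Grhl2, 10 genes of the 18193 that a single symbol named on the array. All 21 of their probe sets that carried exactly 1 gene symbol were taken, out of 45037 probe sets without controls. These genes were chosen with the contrast of TGF-beta1 against low glucose arrays already known. Their differences in that contrast are therefore given as a description, and counts of members past a threshold stand only beside those of all genes. Total RNA was measured on 4 one-colour oligonucleotide arrays, 2 labelled TGFBeta and 2 labelled low glucose. The agent, TGF-beta1 (TGFBeta1 in the labels), is a secreted signalling protein that promotes scarring of the glomerulus. The labels used here give neither strain, age, dose, time nor passage, nor the glucose level of the TGF-beta1 cells, so a difference in glucose cannot be told apart from one in TGF-beta1. Whether 2 arrays of the same group stem from separate cultures is unstated, and the spread between them may be technical. In bulk RNA, a change in the number of cells of a type and a change in the RNA per cell cannot be told apart.

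Claudins are membrane proteins that form the strands of tight junctions and set which ions and solutes pass between epithelial cells. Keratins 8 and 18 are the partner filament proteins of simple, single-layered epithelia, a type II and a type I chain. Keratins 7 and 19 are a further type II and a further type I chain of such epithelia. Keratin filaments assemble only from a type II chain together with a type I chain. Grhl2 is a grainyhead transcription factor that holds up epithelial genes, Cldn4 and the E-cadherin gene Cdh1 among them. In many epithelial cells TGF-beta lowers junction genes through Snail and Zeb repressors, while mesangial cells are of mesenchymal origin and form no tight junctions.

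Cldn4, Krt18 and Krt8 were higher on both TGF-beta1 arrays than on both low glucose arrays, by 1.08, 0.54 and 0.40 on the log2 scale. The other tested members, Cldn1, Cldn3, Krt7 and Grhl2, differed by -0.19 to 0.22. The 3 remaining genes, Cldn6, Cldn7 and Krt19, lay under the brightness filter and differed by -0.01 to 0.06. The differences were not shared by the whole group of genes: 1 claudin and 1 pair of keratin partners held the 3 largest.

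The 3 genes with the largest differences are shown with the sequence around their start, since the arrays bear on their transcripts. Cldn4 and Cldn3 lie next to each other on mouse chromosome 5, and Krt8 and Krt18 next to each other on chromosome 15, with 0 protein-coding genes between the members of either pair in RefSeq. The windows run from 250 bases before to 50 bases after the RefSeq start, build GRCm38.p6, 5′ to 3′ along the gene's strand. Capitals mark matches to the AP-1 motif TGANTCA and to the E-box CACCTG, the core that Snail and Zeb repressors bind, each searched on both strands.
Cldn4, chr5:134946885-134947184, minus strand: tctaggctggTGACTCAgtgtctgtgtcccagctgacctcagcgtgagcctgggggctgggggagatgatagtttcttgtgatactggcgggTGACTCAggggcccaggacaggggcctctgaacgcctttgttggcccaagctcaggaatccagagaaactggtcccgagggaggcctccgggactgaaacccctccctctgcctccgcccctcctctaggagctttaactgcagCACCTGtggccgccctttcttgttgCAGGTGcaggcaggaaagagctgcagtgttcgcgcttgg
Krt8, chr15:102004293-102004592, minus strand: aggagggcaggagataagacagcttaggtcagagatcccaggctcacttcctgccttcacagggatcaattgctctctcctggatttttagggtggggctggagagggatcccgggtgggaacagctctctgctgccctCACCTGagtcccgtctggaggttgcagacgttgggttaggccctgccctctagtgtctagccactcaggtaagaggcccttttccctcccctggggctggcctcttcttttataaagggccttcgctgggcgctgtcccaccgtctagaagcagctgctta
Krt18, chr15:102027966-102028265, plus strand: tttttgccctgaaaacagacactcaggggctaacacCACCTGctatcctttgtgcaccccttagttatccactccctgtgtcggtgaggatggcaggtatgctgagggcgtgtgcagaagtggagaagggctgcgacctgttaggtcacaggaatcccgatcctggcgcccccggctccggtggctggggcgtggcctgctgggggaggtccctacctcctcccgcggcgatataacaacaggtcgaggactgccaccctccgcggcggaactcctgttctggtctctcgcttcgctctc

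The Cldn4 window held 2 matches to TGANTCA, both with the letters TGACTCA, and 2 to CACCTG. At least 1 match to TGANTCA was found in 7.81% of the 32851 RefSeq promoter windows of this length and 2 or more in 0.46%. At least 1 match to CACCTG was found in 20.2% and 2 or more in 2.88%. Krt8 and Krt18 had 1 match to CACCTG each and none to TGANTCA. Windows were given for 8 of the 10 members, 9 windows in all. Of those 8 genes, Cldn3 and Krt7 had 1 match to CACCTG, Cldn6 and Cldn7 had 2 and Cldn1 had none, and none of these 5 had a match to TGANTCA. The grainyhead motif AACNGGTT, present in 2.09% of windows, and the SMAD palindrome GTCTAGAC, in 0.213%, were in none of the 9, and the SMAD motif CAGACA, in 21% of windows, was in those of Cldn4, Krt7 and Krt18. A match is letters in a window and says nothing of binding, and the motifs were chosen with these results known.

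Differences below are on the log2 scale, TGF-beta1 minus low glucose, after a pseudocount of 46.88 and quantile normalisation, so the change of a dim gene is understated. The deposited intensities are linear and are given first. The arrays had been found to fall into 2 pairs with 1 array of either group, from 18 spike-in probe sets that hold no RNA of the cells: TGF-beta1 replicate 2 with low glucose replicate 1 (array pair 1), and TGF-beta1 replicate 1 with low glucose replicate 2 (array pair 2). What the pairs stand for is unknown here. Over all tested genes the median absolute difference was 0.087 between the groups and 0.241 between the array pairs. Values after ± are standard deviations of 2 arrays, or, where named so, standard errors (SE) from limma when the array pair is a block. Such an SE follows from a gene's brightness alone and does not measure that gene's own spread. Without the block the SE was 0.162 for Cldn4 and 0.342 for Grhl2, against 0.064 and 0.065 with it.

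Cldn4, a claudin of distal nephron and other tight epithelia, had deposited intensities of 263 and 302 on TGF-beta1 replicates 1 and 2, against 125 and 93.6 on low glucose replicates 1 and 2. The groups did not overlap, and the lower TGF-beta1 array was brighter than the brighter low glucose array on either scale. Normalised log2 values averaged 8.37 ± 0.086 in TGF-beta1 and 7.29 ± 0.049 in low glucose (SD, n = 2 each). The difference was 1.08 (SE 0.064), or 2.11-fold, and it was 1.10 within array pair 1 and 1.05 within array pair 2. It ranked 16 from the top among the 13565 tested genes. Between the array pairs Cldn4 differed by 0.10. With any 1 array left out the difference was 1.01 to 1.14.

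Krt18, the type I keratin of simple epithelia, was bright, with deposited intensities of 4118.5 and 3747.5 on TGF-beta1 replicates 1 and 2, against 2602.4 and 2796 on low glucose replicates 1 and 2. Both TGF-beta1 arrays lay above both low glucose arrays. The normalised values averaged 11.96 ± 0.17 in TGF-beta1 and 11.42 ± 0.12 in low glucose (SD, n = 2 each). The difference was 0.54 (SE 0.061), or 1.45-fold, with 0.51 within array pair 1 and 0.57 within array pair 2, and 0.42 to 0.66 with any 1 array left out. At this brightness, in the 98.5th percentile of tested genes, the pseudocount barely bears on the size, which was 0.53 to 0.54 under the other pseudocounts.

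Krt8, the type II partner of Krt18, had 3 probe sets, and all of them were higher on both TGF-beta1 arrays. The brightest read 115 and 125 on TGF-beta1 replicates 1 and 2, against 83.1 and 71.9 on low glucose replicates 1 and 2. Its normalised values averaged 7.37 ± 0.091 in TGF-beta1 and 6.97 ± 0.039 in low glucose (SD, n = 2 each). The difference was 0.40 (SE 0.071), or 1.32-fold, with 0.36 within array pair 1 and 0.43 within array pair 2, and 0.33 to 0.46 with any 1 array left out. The other probe sets of Krt8, both of a class that can also match other sequences, differed by 0.36 each. They were less even between array pairs 1 and 2, at 0.26 and 0.47 for the brighter and 0.18 and 0.55 for the dimmer. Krt8 was dim, and without a pseudocount, with a floor in its place, its difference was 0.59 and that of Cldn4 1.37. The sizes for Krt8 and Krt18 are those of different probe sets, and a gap between them is no measure of unequal change.

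**Figure D1:**
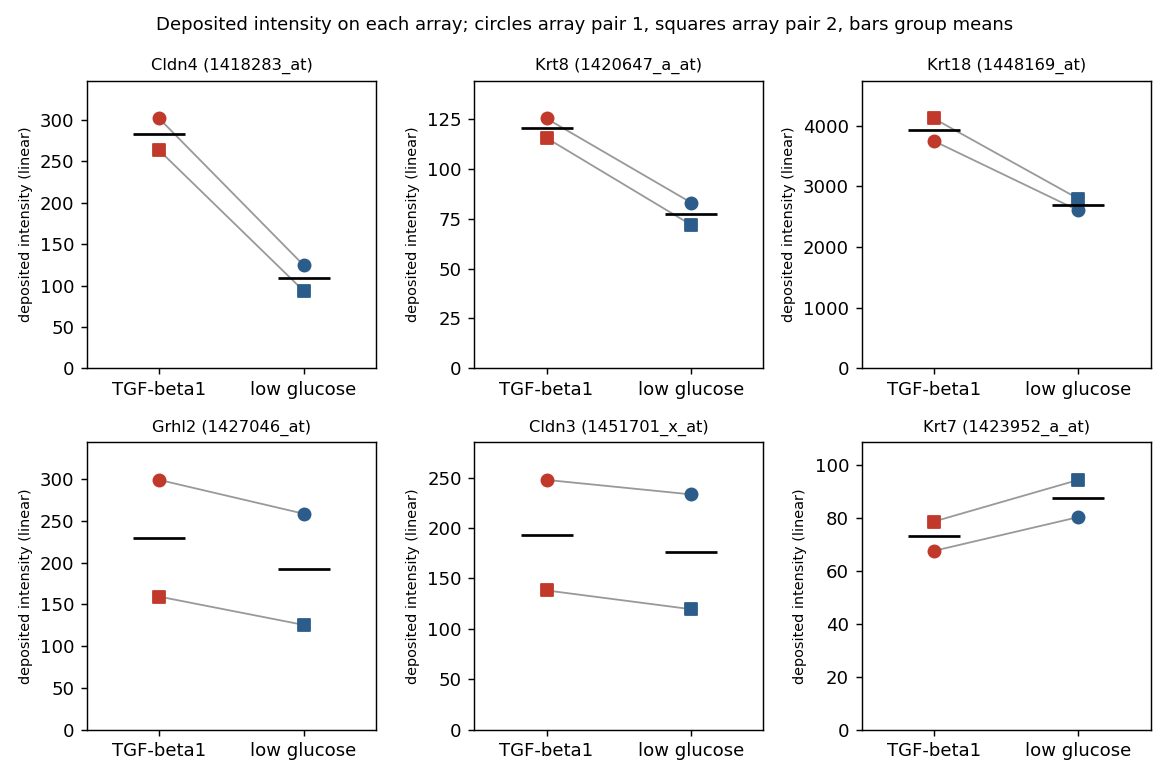
Deposited linear intensity (vertical axis, from 0) of Cldn4, Krt8, Krt18, Grhl2, Cldn3 and Krt7 on each array, with TGF-beta1 arrays in red on the left and low glucose arrays in blue on the right. Circles are array pair 1 and squares array pair 2, lines join the arrays of a pair, and bars are group means. For Cldn4, Krt8 and Krt18 both red points lie above both blue points, while Grhl2 and Cldn3 differ more between circles and squares than between colours.

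Grhl2 showed another pattern: its arrays differed more between the array pairs than between the groups. The brightest of its 4 probe sets read 159 and 299 on TGF-beta1 replicates 1 and 2, against 259 and 126 on low glucose replicates 1 and 2, so the groups overlapped. The normalised values averaged 8.09 ± 0.46 in TGF-beta1 and 7.87 ± 0.48 in low glucose (SD, n = 2 each). The difference between groups was 0.22 (SE 0.065), with 0.21 and 0.23 within array pairs 1 and 2, beside a difference of 0.66 between the array pairs. When 1 array was left out, which unbalances the array pairs, it was 0.54 and -0.11 with TGF-beta1 replicates 1 and 2 left out in turn, and 0.55 and -0.12 with low glucose replicates 1 and 2 left out in turn. The second probe set differed by 0.18 between groups and by 0.30 between the array pairs. The other probe sets, both under the filter, were at -0.01 and -0.04.

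Cldn3, the neighbour of Cldn4 and like it a claudin of tight epithelia, showed no difference of that size. Its brightest probe set read 138 and 248 on TGF-beta1 replicates 1 and 2, against 233 and 119 on low glucose replicates 1 and 2. These groups overlapped, and the normalised difference was 0.11 (SE 0.064) between groups and 0.56 between the array pairs. The next probe set read 160 and 164 on TGF-beta1 replicates 1 and 2, against 157 and 129 on low glucose replicates 1 and 2, and differed by 0.13 without overlap. The remaining probe sets of Cldn3 were at 0.04 and -0.09, the lower of which was 0.14 within array pair 1 and -0.31 within array pair 2. The brightest probe set was at 0.38 and -0.17 with TGF-beta1 replicates 1 and 2 left out in turn, and at 0.40 and -0.19 with low glucose replicates 1 and 2 left out in turn.

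Cldn1, a claudin of tight junction strands that also marks the parietal cells of Bowman's capsule, had 4 probe sets with differences of 0.0026 to 0.20. The tested one read 115 and 129 on TGF-beta1 replicates 1 and 2, against 125 and 96.4 on low glucose replicates 1 and 2, and differed by 0.08 (SE 0.067). It overlapped on the deposited scale and did not after normalisation. A second probe set, of the class that can match other sequences, read 145 and 76.2 on TGF-beta1 replicates 1 and 2, against 74.2 and 142 on low glucose replicates 1 and 2, which follows the array pairs and leaves a difference of 0.0026 between groups. One more, under the filter, read 65.3 and 73.5 on TGF-beta1 replicates 1 and 2, against 53.6 and 52.2 on low glucose replicates 1 and 2, a difference of 0.20 that was 0.22 and 0.17 within the array pairs.

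Krt7, a type II keratin of ducts and simple epithelia, was the only tested member with a lower value in TGF-beta1. It read 78.7 and 67.6 on TGF-beta1 replicates 1 and 2, against 80.4 and 94.5 on low glucose replicates 1 and 2. The difference was -0.19 (SE 0.075), with -0.17 and -0.21 within array pairs 1 and 2. The groups did not overlap on the deposited scale and overlapped after normalisation. It was -0.34 and -0.03 with TGF-beta1 replicates 1 and 2 left out in turn, and -0.36 and -0.01 with low glucose replicates 1 and 2 left out in turn.

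Krt19, the smallest type I keratin, and the claudins Cldn6, known from early embryonic epithelia, and Cldn7, known from distal nephron and gut, had 1 probe set each, all under the filter. Krt19 read 39.0 and 46.7 on TGF-beta1 replicates 1 and 2, against 43.3 and 40.6 on low glucose replicates 1 and 2, a difference of -0.01. Cldn6 read 40.001 and 43.4 on TGF-beta1 replicates 1 and 2, against 50.2 and 32.2 on low glucose replicates 1 and 2, a difference of 0.01. Cldn7 read 52.9 and 67.6 on TGF-beta1 replicates 1 and 2, against 62.8 and 46.0 on low glucose replicates 1 and 2, a difference of 0.06. All 3 overlapped between groups, and a change in so dim a probe set may not be detectable on these arrays.

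**Figure D2:**
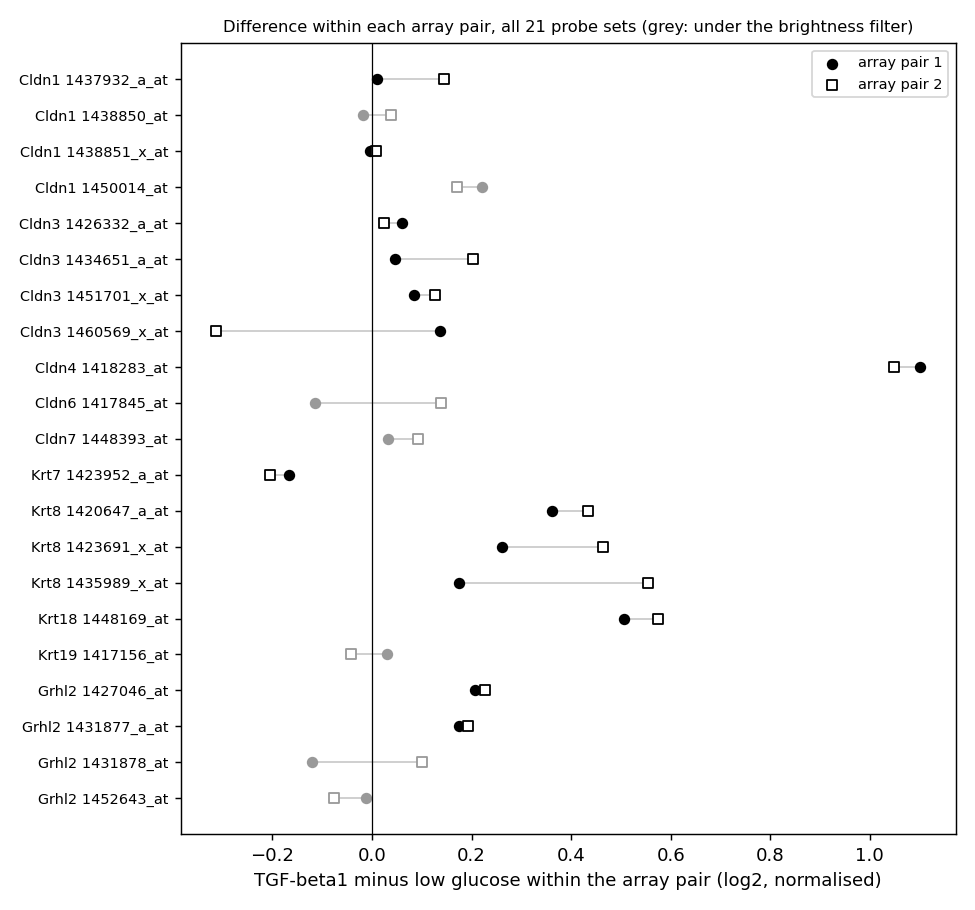
Difference of TGF-beta1 minus low glucose on the log2 scale (horizontal axis) within array pair 1 (circles) and array pair 2 (squares) for all 21 probe sets, with those under the brightness filter in grey. Cldn4 stands at 1.10 and 1.05, Krt18 and the 3 Krt8 probe sets are above 0 in both pairs, and most other probe sets lie near 0.

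Of the 21 probe sets, 9 had both TGF-beta1 arrays above both low glucose arrays after normalisation, 0 had both below and 12 overlapped. Every probe set of Krt8 is among the 9, so they do not stand for as many genes. No share over all probe sets was computed to set beside these counts. The filter kept 14 of the 21, and 7 of the 10 genes were tested. Of these 7, 4 had both TGF-beta1 arrays above and 0 had both below, beside 9.83% of all 13565 tested genes above and 11.1% below. With the array pair as a block in limma, 4 of the 7 (Cldn4, Krt18, Krt8 and Grhl2) passed an adjusted p of 0.05 in the upward direction, beside 7.89% of all tested genes higher and 10.6% lower, 18.5% in all. Nothing is read from these counts, since the genes were chosen on this contrast. Without the block, limma called 0 of the 7 and 0% of all tested genes, with 271 genes at an unadjusted p under 0.05. A difference of 0.5 or more was reached by 2 of the 7 and by 1.19% of all tested genes. The median difference was 0.217 over the 7 tested members and 0.0917 over the brightest probe set of all 10, while that of all tested genes was -0.000121.

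**Figure D3:**
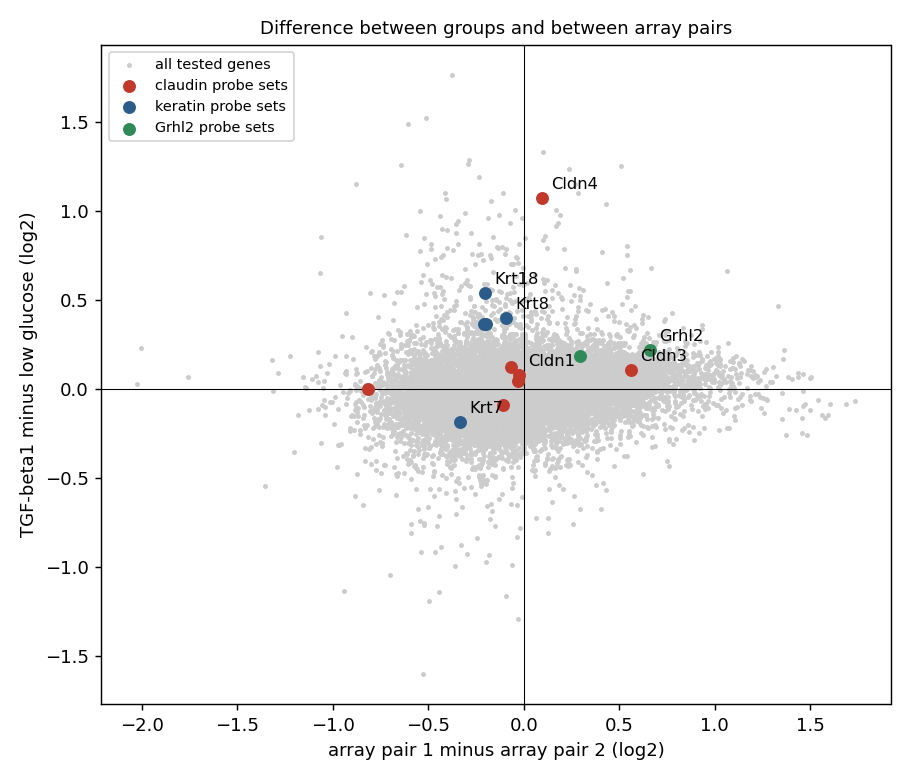
Difference of TGF-beta1 minus low glucose (vertical axis, log2) against array pair 1 minus array pair 2 (horizontal axis, log2) for the 13565 tested genes in grey and the 14 kept probe sets of the claudins (red), keratins (blue) and Grhl2 (green), with names on the tested ones. Cldn4, Krt18 and Krt8 lie high and near the vertical axis, while Grhl2 and Cldn3 lie to the right, at 0.66 and 0.56 between the array pairs.

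The tested genes outside the group whose values over the 4 arrays lay nearest to those of Cldn4, each centred on its own mean, were Bhlhe40, a transcriptional repressor, Rhob, a small GTPase, and Tm4sf1, a membrane protein. Their root mean square distances were 0.0571, 0.0765 and 0.0806, and their differences between groups 1.01, 0.965 and 1. The nearest to Krt18 were Tubb2a-ps2, Adam8 and Plekho1, at distances of 0.024, 0.0265 and 0.0288. The nearest to Krt8 were Nox4, Atf4 and Fxyd5, at 0.0107, 0.0212 and 0.0223. With 4 arrays such likeness is a description of these libraries.

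Among other genes of the same structures and their regulators, each list had 0 to 4 genes that rose and 0 to 3 that fell. A related gene "rose" or "fell" where its adjusted p was under 0.05 in limma when the array pair was a block. Without the block, limma called 0 genes of any list below, and with the block but the prior of the unblocked fit it called 0 genes of the related lists. On simulated data the unblocked fit recovered none of the changed genes at any size tried. Those data held the pair differences of these arrays, which that fit counts as spread, so its failure was built in. Its lack of calls is no sign that genes did not differ, and the simulation lends no weight to the blocked calls. Where the simulated spread varied between genes, the blocked fit recovered 0% of changes of 0.25 and 14.9% of those of 0.5. Each list's median stands beside that of all tested genes, -0.000121, and the called shares are to be read against 7.89% higher and 10.6% lower. Leaving out 1 array was done without the block and unbalances the array pairs.

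Of the 16 other claudins with a probe set, 10 were tested, 1 rose, 0 fell and 9 missed the threshold, and the median was 0.0656. Cldn10, a claudin of paracellular ion pores in the nephron, rose by 0.47 ± 0.065 (SE; 0.46 and 0.47 within the array pairs). Its groups overlapped, at 7.61 and 8.94 on TGF-beta1 replicates 1 and 2, against 8.48 and 7.14 on low glucose replicates 1 and 2, and the array pairs differed by 1.33. It was 1.13 and -0.20 with TGF-beta1 replicates 1 and 2 left out in turn, and 1.13 and -0.20 with low glucose replicates 1 and 2 left out in turn. Cldn12 was at 0.19, Cldn22 at 0.15 and Cldn9 at 0.09, none past the threshold. Cldn12 passed with the authors' scaling (0.21, adjusted p = 0.045 in limma) and with no intensity trend (0.19, adjusted p = 0.0452 in limma).

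Of 44 other keratins, 25 were tested, 3 rose, 0 fell and 22 missed the threshold, and the median was 0.0838. Krt80, a type II keratin, rose by 0.61 ± 0.072 (SE), with 8.74 and 8.97 on TGF-beta1 replicates 1 and 2, against 8.25 and 8.23 on low glucose replicates 1 and 2, and stayed within 0.50 to 0.73 when any 1 array was left out. Krt20, a type I keratin of gut and urothelium, rose by 0.28 ± 0.077 (SE), with overlap between groups. It was 0.01 and 0.55 with TGF-beta1 replicates 1 and 2 left out in turn, and 0.09 and 0.47 with low glucose replicates 1 and 2 left out in turn. Krt71, a keratin of the hair root sheath, rose by 0.21 ± 0.065 (SE), with overlap. It was 0.73 and -0.31 with TGF-beta1 replicates 1 and 2 left out in turn, and 0.70 and -0.28 with low glucose replicates 1 and 2 left out in turn.

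Among tight junction proteins other than claudins, 0 of 19 rose, 3 fell and 16 missed the threshold, and the median was -0.018. The genes that fell were the scaffolds Magi3 (-0.28 ± 0.075, SE), Tjp3 (-0.21 ± 0.068, SE) and Patj (-0.19 ± 0.064, SE), and in all of them the groups overlapped. Other kept probe sets of Magi3 were at -0.19 and 0.22, and another kept probe set of Patj was at -0.18. Without TGF-beta1 replicate 2, Magi3 was at -0.11, Tjp3 at -0.10 and Patj at -0.02, and without low glucose replicate 2 at -0.08, -0.01 and -0.11. Without TGF-beta1 replicate 1 they were at -0.46, -0.32 and -0.37, and without low glucose replicate 1 Magi3 was at -0.48 and Tjp3 at -0.41.

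Among 11 tested genes of desmosomes and keratin linkers, 4 rose and 1 fell, while 6 missed the threshold, and the median was 0.101. Perp, a desmosome-linked membrane protein, rose by 0.21 ± 0.066 (SE) with both TGF-beta1 arrays above both low glucose arrays, and was 0.12 without low glucose replicate 1. Jup, plakoglobin, rose by 0.26 ± 0.083 (SE) and Plec, plectin, by 0.25 ± 0.077 (SE), both with overlap. Without TGF-beta1 replicate 2 these were at -0.04 and -0.18, without low glucose replicate 2 at -0.06 and -0.22, without TGF-beta1 replicate 1 at 0.55 and 0.68, and, with low glucose replicate 1 left out, at 0.58 and 0.72. Pkp1, plakophilin 1, passed narrowly at 0.17 (adjusted p = 0.0485 in limma) and missed the threshold under 5 alternatives, with adjusted p between 0.0603 and 0.101. Dst, dystonin, fell by 0.21, and another kept probe set of it was at -0.08. With TGF-beta1 replicates 1 and 2 left out in turn, Pkp1 was at 0.81 and -0.47 and Dst at -0.05 and -0.37. With low glucose replicates 1 and 2 left out in turn, Pkp1 was at 0.88 and -0.55 and Dst at -0.09 and -0.33.

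Among 9 tested partners of Grhl2 and other epithelial regulators, 1 rose and 1 fell, while 7 missed the threshold, and the median was 0.0181. Klf5, a Kruppel-like factor of epithelia and smooth muscle, rose by 0.77 ± 0.082 (SE), with 9.56 and 10.08 on TGF-beta1 replicates 1 and 2, against 9.20 and 8.90 on low glucose replicates 1 and 2. It was 0.51 without TGF-beta1 replicate 2, and another kept probe set was at 0.18. Tfcp2l1, a grainyhead-related factor of distal tubule, fell by 0.27 ± 0.069 (SE) without overlap, and was -0.15 with either replicate 2 left out. Grhl1 and Grhl3 lay under the filter.

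Among 14 tested surface genes of epithelia, 1 rose and 0 fell, while 13 missed the threshold, and the median was 0.0326. Lad1, a filament-anchoring protein, rose by 0.27 ± 0.081 (SE) with overlap. It was 0.44 and 0.10 with TGF-beta1 replicates 1 and 2 left out in turn, and 0.48 and 0.06 with low glucose replicates 1 and 2 left out in turn. Cdh1, E-cadherin, lay under the filter.

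Of 7 tested repressors of epithelial genes, 1 rose and 6 missed the threshold, and the median was 0.119. Snai2, the Slug repressor, rose by 0.31 ± 0.064 (SE; 0.43 and 0.19 within the array pairs), with overlap. It was 0.59 and 0.02 with TGF-beta1 replicates 1 and 2 left out in turn, and 0.47 and 0.15 with low glucose replicates 1 and 2 left out in turn. Snai1 was at 0.19, Zeb1 at 0.11 and Zeb2 at 0.12, none past the threshold, although Snai1 passed with the authors' scaling (0.22, adjusted p = 0.0253 in limma).

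Among 8 tested intermediate filament genes other than keratins, 3 rose and 0 fell, while 5 missed the threshold, and the median was 0.0791. Nes, nestin, rose by 0.63 ± 0.081 (SE), with both TGF-beta1 arrays above both low glucose arrays, and was 0.36 without TGF-beta1 replicate 2 and 0.37 without low glucose replicate 2. Other kept probe sets of Nes were at 0.23 and 0.11. Vim, vimentin, the main filament of mesenchymal cells, rose by 0.29 ± 0.050 (SE) without overlap, and its other kept probe sets were at 0.24 and 0.17. Lmna, which encodes lamins A and C, rose by 0.36 ± 0.067 (SE) with overlap, and was 0.60 and 0.13 with TGF-beta1 replicates 1 and 2 left out in turn, and 0.66 and 0.06 with low glucose replicates 1 and 2 left out in turn. The other kept probe sets of Lmna, 4 in number, were at 0.0466 to 0.247.

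**Figure D4:**
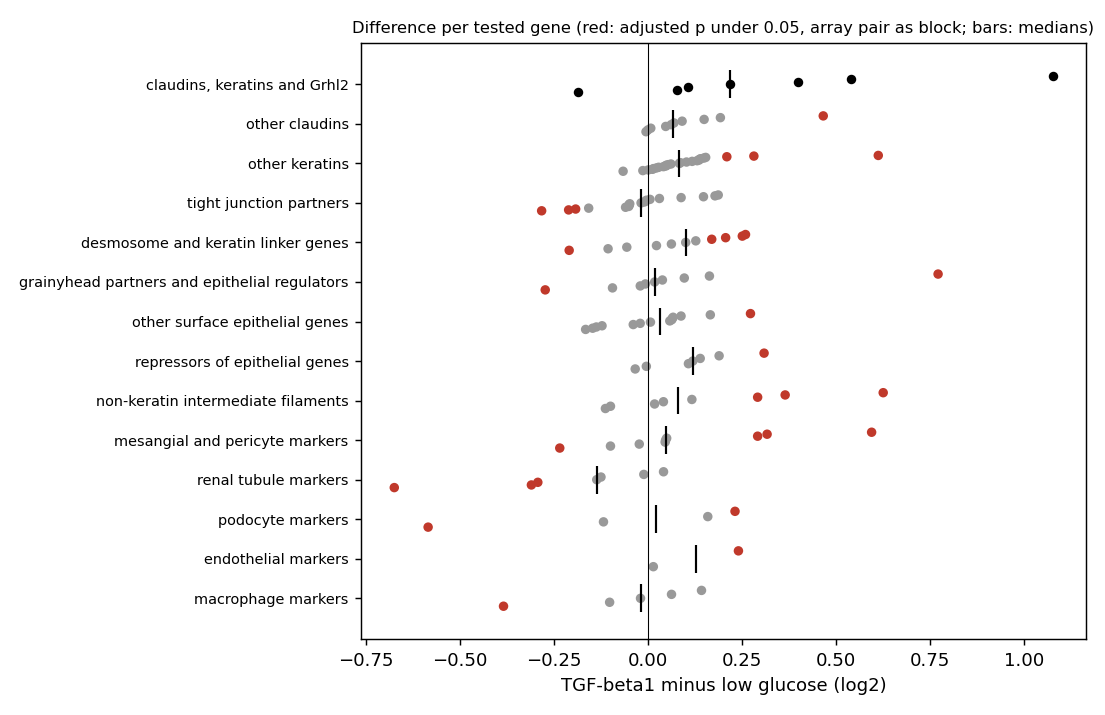
Difference of TGF-beta1 minus low glucose (horizontal axis, log2) for each tested gene of the claudin, keratin and Grhl2 group (black, top) and of each list of related genes or cell type markers. Red points passed an adjusted p of 0.05 in limma with the array pair as a block, grey points did not, and bars are medians. The medians of the related lists lie between -0.018 and 0.119.

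The labelled cell type was checked against markers. Of 12 mesangial and pericyte markers 9 were tested, while Gata3, Thy1 and Agtr1a lay under the filter. Of those 9, Vim and Fhl2 were bright, in the 99.5th and 76.1th percentile of tested genes, and the other 7, Pdgfrb (16.2th) and Des (30.5th) among them, lay at or below the 30.5th. Of 10 renal tubule markers with a probe set 7 were tested, while Cubn, Slc34a1 and Slc12a1 lay under the filter. Of those 7, Cdh16, Aqp1, Pax8 and Lrp2 were in the 94.9th, 93.7th, 80.7th and 67.6th percentile, and Umod, Slc12a3 and Aqp2 were dim, in the 10.8th, 16.7th and 19.4th. A probe set's brightness also depends on its probes. Kidney tubule cells are epithelial and use claudins and keratins 8 and 18. Of the 7 tubule markers 0 rose, 3 fell (Aqp1 by 0.67, Cdh16 by 0.31 and Lrp2 by 0.29) and 4 missed the threshold, and the median was -0.136. Their summed deposited intensity was 4243 and 4415 on TGF-beta1 replicates 1 and 2, against 6082 and 5180 on low glucose replicates 1 and 2. Cdh16 was at -0.20 without TGF-beta1 replicate 2. The sum over the mesangial and pericyte markers was 6785 and 7943 on TGF-beta1 replicates 1 and 2, against 6498 and 5511 on low glucose replicates 1 and 2, with 3 that rose (Fhl2, Acta2 and Vim) and 1 that fell (Rgs5). Vim made up 78.1% to 78.9% of that sum, and without it the sum was 1488 and 1704 on TGF-beta1 replicates 1 and 2, against 1392 and 1166 on low glucose replicates 1 and 2. Podocyte markers had 1 of 4 that rose (Podxl) and 1 that fell (Synpo), endothelial markers 1 of 2 that rose (Eng) and macrophage markers 0 of 5 that rose and 1 that fell (Csf1r). Another kept probe set was at -0.01 for Podxl, at 0.07 for Synpo and at 0.04 for Eng. With TGF-beta1 replicates 1 and 2 left out in turn, Acta2 was at 0.18 and 0.45, Rgs5 at -0.07 and -0.40, Podxl at 0.46 and 0.0045, Synpo at -0.82 and -0.35, Eng at 0.50 and -0.02 and Csf1r at -0.20 and -0.56. With low glucose replicates 1 and 2 left out in turn, Rgs5 was at 0.15 and -0.62, Podxl at 0.45 and 0.02, Eng at 0.47 and 0.01 and Csf1r at -0.24 and -0.53. The part of any cell mixture in the differences of Cldn4, Krt8 and Krt18 was not tested.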

How the data were processed

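Per the labels, total RNA of mouse mesangial cells was measured on 4 arrays, grouped by title into 2 TGF-beta1 and 2 low glucose samples. The replicate numbers were assigned here and pair no arrays. The titles carry repeat tags, whose meaning is not stated. Low glucose replicate 1 and TGF-beta1 replicate 2, the arrays of array pair 1, share the tag rpt. Low glucose replicate 2 has the tag rpt 2 and TGF-beta1 replicate 1 has none. The authors deposited 1 linear intensity per probe set and array; the summary method and scaling are not stated in the sources used here. The members, gene lists, motifs and tests were chosen with earlier results of these data known.

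From the intensities, log2(intensity + 46.88) was computed, with the 25th percentile of all values as the pseudocount. Array medians differed by 0.227, above the limit of 0.1, so the arrays were quantile normalised (limma 3.58.1, R 4.3.3). Of 45037 probe sets, 34945 had 1 gene symbol in the platform annotation, 932 several and 9160 none here. Probe sets whose mean log2 value reached the 40th percentile were kept (27022), and the brightest of each gene was tested (13565 genes). Two-sided tests used limma's lmFit and eBayes (trend on intensity), adjusted by Benjamini-Hochberg over all tested genes, without and with the array pair as a block. In 18 spike-in probe sets the mean absolute log2 difference was 0.0482 and 0.0775 within pairs and at least 0.937 between them. With the block, 1 residual degree of freedom is left and the prior is infinite, which makes the standard error a function of brightness alone.

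Genes named were all members, up to 4 of each list with the largest difference, the members of small counts, and the 3 nearest genes to each of 3 members; Grhl1, Grhl3, Cdh1, Gata3, Thy1 and Agtr1a were named after their values were seen. The fits were tested on simulated data with changes of 0.25, 0.5 and 1 on the log2 scale. With equal spread over genes the blocked fit recovered 61.2%, 100% and 100% of them. Where the spread varied between genes it recovered 0%, 14.9% and 93.9%. It made more false calls than its 5% threshold allows, and the unblocked fit recovered none of the changed genes. The number of arrays limits the precision. Alternatives were other pseudocounts, a floor, other scalings and filters, all kept probe sets, no intensity trend, another prior and leaving out each array. For the members, the mean over all probe sets of a gene was also taken. Promoter sequences are from RefSeq. Figures used matplotlib 3.10.9 and Python 3.11.15.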

Additional observations from a re-analysis of the deposited data

How the results depend on the processing

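With 2 arrays a group, the differences of Cldn4, Krt18 and Krt8 kept their sign under all alternatives run and within both array pairs. Krt7 stayed negative throughout as well, but its size varied widely with the array left out. The tested probe sets of Grhl2 and Cldn3 were higher within both array pairs and turned negative when replicate 2 of either group was left out. Their sizes also depended on the probe set: as the mean over all probe sets of the gene, Grhl2 was at 0.09 and Cldn3 at 0.05. The sizes of Cldn6, Cldn7 and Krt19, all under the filter, also depended on which arrays were compared. The count of genes called without the block was 0 in each setting that kept all 4 arrays and had no block, and 0 to 9 when 1 array was left out. With the array pair as a replicate block it was 2503. The blocked count was 4285 with all kept probe sets, where more features were tested, and 0 with the prior taken from the unblocked fit. The spike-in values, not the replicate numbers, gave the pairs. Over the lists of related genes, 19 genes were called with the block, 0 without it and 0 with that other prior; these alternatives and the others run on this count were chosen after seeing the data. The median over the 10 members' brightest probe sets was 0.0917, 0.155 with a floor in place of the pseudocount, and 0.0205 to 0.243 when 1 array was left out. The sign of a called gene turned in the following cases, each of which leaves the array pairs unbalanced; the values are the lowest and highest when 1 array was left out. Grhl2 was at -0.1188 to 0.5533, Cldn10 at -0.2023 to 1.134, Krt71 at -0.3137 to 0.7333, Pkp1 at -0.5455 to 0.8848, Plec at -0.2155 to 0.7173, Jup at -0.05981 to 0.5786, Eng at -0.01839 to 0.4996 and Rgs5 at -0.6205 to 0.1524. The negative values of Grhl2, Cldn10, Krt71, Pkp1, Plec and Jup came without replicate 2 of TGF-beta1 or of low glucose, that of Eng without TGF-beta1 replicate 2, and the positive value of Rgs5 without low glucose replicate 1. Of the related and marker genes, Pkp1 lost its call with the pseudocount at the 50th percentile, median centring, no filter, all kept probe sets and no intensity trend, while Cldn12, Snai1, Amotl1, Trp63 and Nphs1 gained one under 1 or 2 settings each. Cldn6 was at -0.01 with arrays centred on their medians and at -0.03 with a floor. Cldn7 was at 0.17 with a floor, against 0.06 as reported, and Krt19 was at 0.01 with the authors' scaling. The blocked fit could not be repeated without an array, since no residual degree of freedom would remain.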
